A study of Mus musculus with 2 samples.

Results

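Nuclear receptors are transcription factors whose activity is set, in many members, by small fat-soluble molecules such as steroids, thyroid hormone, sterols, bile acids and fatty acids. Most bind DNA through a zinc finger domain, usually at copies of a short core site, as a monomer, a homodimer or a heterodimer with an RXR. Several members have no known natural ligand, and the COUP-TFs among them are broadly used in patterning of the early nervous system, heart and vessels. The set described here holds 40 genes, taken by name from the receptor subfamilies NR0 to NR6 without the Rar genes, of the 21938 protein-coding genes of the GENCODE M21 annotation on nuclear chromosomes. The rule used gene names and no measured value, but the choice was made with earlier results of these data known.

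Accessible DNA was assayed by DNase-seq, in which the enzyme DNase I cuts DNA most where chromatin is open, in whole B6NCrl mouse embryos of embryonic day 10.5. The labels give 2 biological replicates of pooled male and female embryos described as healthy, with no treatment or genetic change, so there was 1 group and no contrast between conditions. A whole embryo mixes many tissues, so each value is a mixture over them. Fewer cells with an open site and less cutting at that site in each cell cannot be told apart.

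Replicate 1 held 207946 peaks and replicate 2 held 229568 peaks on nuclear chromosomes of the mm10 build, each 150 bp wide. The authors gave each peak a score, and the files do not define it. Its median was 41 among peaks of replicate 1 and 50 among those of replicate 2. The number of reads behind a peak is unknown. A gene is called open here if both replicates had a peak no further than 1 kb from one of its transcription start sites (TSSs), and its strength is the highest score there. The tissue label was set beside marker lists of 5 genes each. By the same rule 69.7% of all protein-coding genes were open, so lists this short cannot settle the label. All 5 neural tube and all 5 limb bud markers were open, 4 of 5 for somite and for heart, 3 of 5 for endothelium and 2 of 5 for blood. Of tissues around the embryo, 2 of 5 decidua, 1 of 5 trophoblast and 1 of 5 yolk sac endoderm markers were open, and none of the 5 adult liver markers was. The open decidua markers were Hand2 and Hoxa10, and Hand2 stands in both the heart and the decidua list.

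Of the 40 receptor genes, 35 were open, a share of 87.5%, against 69.7% of all protein-coding genes. Nr0b2, Nr1i3 and Nr2e3 had no peak within 1 kb of a TSS in either replicate, and Nr1h4 and Nr1i2 had a weak peak in replicate 1 alone. The median strength of the 35 open members was 107 in replicate 1 and 109 in replicate 2, below the 109 and 118 of the 15300 open genes. In the top 25% of open genes by strength, over 126.5, stood 6 of the 35, or 17.1%, against 24.0% of all open genes. In the bottom 25%, under 90, stood 8 of the 35, or 22.9%, against 24.9%. Both shares are near or below those of all genes. In 10 open members, or 28.6%, the strongest TSS peaks of the replicates did not overlap, against 9.36% of all open genes. They were Nr0b1, Thra, Pparg, Nr1d2, Nr1h2, Nr2f2, Esr1, Esr2, Nr4a3 and Nr5a1, and their means and SDs compare different peaks. All 35 open members had at least 1 overlapping pair of peaks within 1 kb of a TSS. The strongest peak was taken over all TSSs of a gene, and members had more annotated TSSs, with medians of 5.5 and 3. The share of 28.6% was not adjusted for this.

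**Figure D1:**
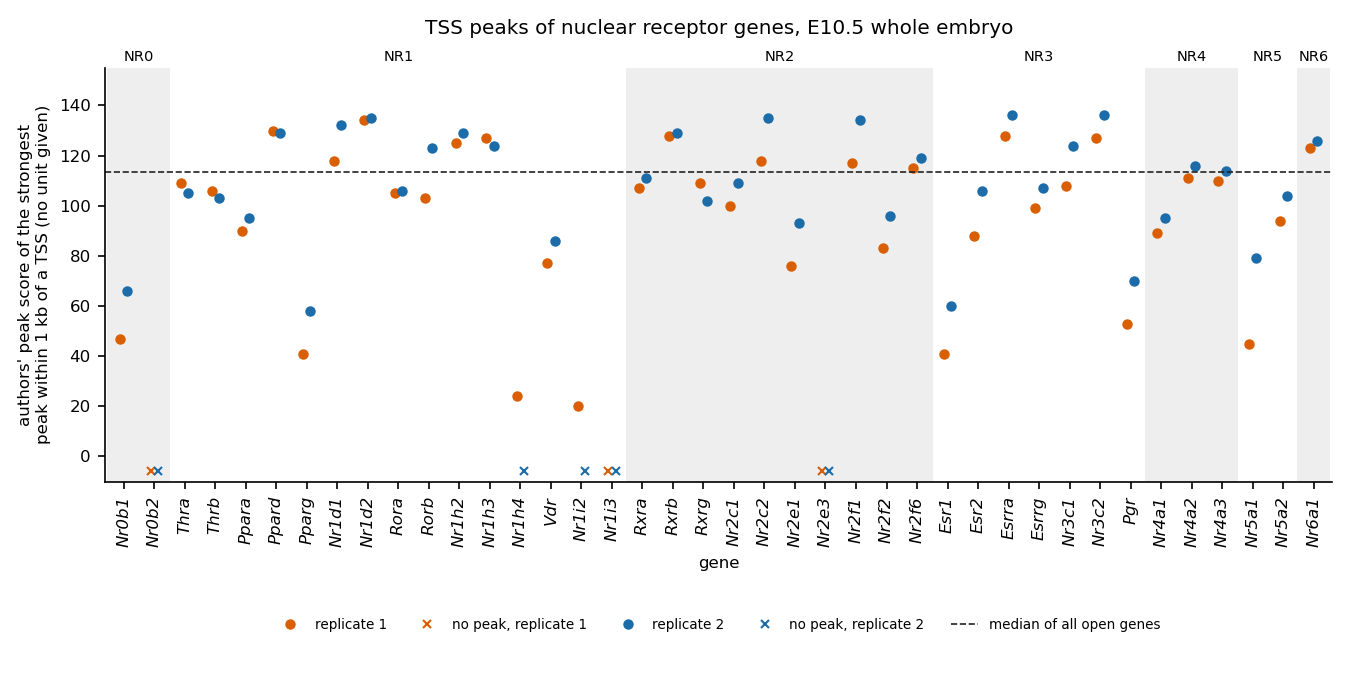
Score of the strongest peak within 1 kb of a TSS for each of the 40 genes, by subfamily from NR0 to NR6 (orange, replicate 1; blue, replicate 2; crosses below 0, no peak; the y axis is the authors' score, which has no stated unit). Open members run from 41 to 134 in replicate 1 and from 58 to 136 in replicate 2, and the dashed line is the median of all open genes, 113.5.

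The receptors for thyroid hormone, Thra and Thrb, were both open. Thra (chr11:98740638-98769006) scored 109 and 105 in replicates 1 and 2, and Thrb (chr14:17660261-18038090) scored 106 and 103. The pair differed by less than 5 points in each replicate. Thrb had 3 promoters, counting TSSs more than 1 kb apart as separate promoters, and the peak lay at the first. No peak lay at the others, 303 and 321 kb downstream. Thra also had a peak at its next promoter, 3.60 kb downstream, with 76 and 97, and none at its last, 12.9 kb downstream.

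The 3 PPARs, receptors for fatty acids and their derivatives, spanned a wide range. Ppard, the most broadly expressed of them, scored 130 and 129. Ppara, known for fatty acid oxidation in liver and heart, scored 90 and 95. Pparg, the regulator of fat cell formation, scored 41 and 58, and its mean of 49.5 ± 12 (SD, n = 2), again over different peaks, was the lowest of the 35 open members. The order of the 3 was the same in both replicates, with gaps larger than the replicate differences. Pparg had peaks at its first promoter and at one 1.34 kb downstream (36 and 58). The 58 there, in replicate 2, was the peak also counted at the first promoter. No peak lay at promoters 22.7, 61.1 and 79.0 kb downstream. The later promoters of Ppara and Ppard, from 37.2 to 60.5 kb downstream, also held no peak.

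Nr1d1 and Nr1d2 encode the REV-ERB repressors of the circadian clock, and Rora and Rorb encode activators that bind related sites. Nr1d2 (134 and 135) had the highest mean strength of the set, 134.5 ± 0.707 (SD, n = 2), from peaks at different positions in the replicates. Nr1d1 scored 118 and 132. Both genes stood above the median of open genes in each replicate. A still stronger peak lay inside Nr1d1 (chr11:98767932-98775333, minus strand), in an intron 1.28 kb downstream of its TSS, with 131 and 134. Its 150 bases at chr11:98773976-98774125 (mm10, plus strand, from the genome sequence) are shown because they hold TTATGTAA, the D-box bound by clock regulators of the PAR bZIP family, in capitals.
Nr1d1 intron peak: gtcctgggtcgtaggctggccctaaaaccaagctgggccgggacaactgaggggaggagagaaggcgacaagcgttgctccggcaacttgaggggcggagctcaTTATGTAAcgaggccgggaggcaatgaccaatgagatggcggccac
Rora, needed for Purkinje cell development, had its strongest TSS peak not at the first promoter but at the one furthest downstream, 636 kb away, with 105 and 106. Its first promoter scored 70 and 90. Rorb, expressed in retina and brain, scored 103 and 123 at its first promoter and had no peak at the other, 110 kb downstream.

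Nr1h2 and Nr1h3 encode the LXRs, sensors of oxidised cholesterol, and Nr1h4 encodes FXR, the bile acid receptor. Nr1h2 scored 125 and 129 and Nr1h3 scored 127 and 124. The Nr1h3 peak also lay within 1 kb of a TSS of Acp2, so it cannot be given to Nr1h3 alone. A further Nr1h3 promoter, 7.68 kb downstream, scored 94 and 107 and had no TSS of another protein-coding gene within 1 kb. Nr1h4 had a single peak of 24 in replicate 1, 420 bp from a TSS, and the nearest peak in replicate 2 lay 11500 bp away. Thus Nr1h4 was at the weak end of the peak scores while the LXRs were in the upper part.

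Vdr, Nr1i2 and Nr1i3 encode the vitamin D receptor and the drug and bile acid sensors PXR and CAR. Vdr scored 77 and 86, at 1 of its 5 promoters. Nr1i2 had a peak of 20 in replicate 1 alone, 832 bp from its TSS. Nr1i3 had none, and its nearest peaks (75 and 98) lay 6587 and 6607 bp from a TSS of Nr1i3, nearest to the TSS of Tomm40l. Among members tied to liver in this text, Ppara (90 and 95) and Nr5a2 (94 and 104) were open. No list of liver members was drawn up, and other open members, such as Nr1h3 (127 and 124), were not sorted by tissue. PXR, CAR, FXR and SHP, the product of Nr0b2, are best known from liver and gut, and their 4 genes were all among the 5 that were not open. Of these 4, Nr0b2, Nr1i2 and Nr1i3 were also low in CpG, as described below, and a link to liver was not tested.

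The upstream sequence of 3 of these 4 genes held a searched motif, and these windows are shown as examples of start sites without a shared peak. Each is the 250 bases before a start annotated by RefSeq (GRCm38.p6), on the strand of the gene. Capitals mark CACGTG, the E-box, in Nr1i3 (chr1:171213720-171213969, plus strand) and Nr0b2 (chr4:133553126-133553375, plus strand). In Nr1h4 (chr10:89506659-89506908, minus strand) they mark the receptor core site AGGTCA read from the other strand.
Nr1i3 promoter: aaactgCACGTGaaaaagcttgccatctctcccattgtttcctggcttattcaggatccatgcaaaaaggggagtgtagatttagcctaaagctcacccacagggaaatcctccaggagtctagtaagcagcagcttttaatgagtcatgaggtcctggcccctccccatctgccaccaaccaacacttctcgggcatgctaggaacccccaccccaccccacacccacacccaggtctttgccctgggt
Nr0b2 promoter: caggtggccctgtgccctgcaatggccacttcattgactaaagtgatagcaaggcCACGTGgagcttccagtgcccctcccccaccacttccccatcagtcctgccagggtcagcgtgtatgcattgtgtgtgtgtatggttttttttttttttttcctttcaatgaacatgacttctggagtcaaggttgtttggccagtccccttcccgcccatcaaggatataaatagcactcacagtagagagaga
Nr1h4 promoter: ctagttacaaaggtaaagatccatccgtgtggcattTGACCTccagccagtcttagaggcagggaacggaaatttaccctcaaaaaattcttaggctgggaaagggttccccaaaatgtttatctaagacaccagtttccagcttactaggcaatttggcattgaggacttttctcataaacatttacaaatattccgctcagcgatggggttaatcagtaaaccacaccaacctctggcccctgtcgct
The window of Nr1h4 lies at its downstream promoter, where no peak was called in either replicate.

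The RXRs, the shared partners of many receptors, were all open. Rxrb scored 128 and 129, with Slc39a7 starting within 1 kb of the same peak. The next Rxrb promoter, 1.74 kb downstream, scored 58 and 83. Rxrg scored 109 and 102, and Rxra scored 107 and 111. Rxrg and Rxra exchanged their order between replicates. The Rxra peak lay at its last promoter, 63.8 kb downstream of the first, which scored 72 and 88. Rxrg had a later promoter, 19.9 kb downstream, with a peak of 41 in replicate 2 and none in replicate 1. Its upstream window (chr1:167618015-167618264, plus strand, RefSeq) holds AAAGGTCA, a form of the core site bound by NR4 monomers, shown in capitals.
Rxrg downstream promoter: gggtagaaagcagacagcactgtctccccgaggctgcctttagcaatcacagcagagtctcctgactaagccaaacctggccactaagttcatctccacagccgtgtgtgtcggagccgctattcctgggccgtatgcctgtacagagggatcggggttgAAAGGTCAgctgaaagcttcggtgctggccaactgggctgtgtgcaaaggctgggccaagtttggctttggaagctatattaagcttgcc

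The COUP-TFs are Nr2f1, Nr2f2 and Nr2f6. Nr2f1 (chr13:78188973-78199757) scored 117 and 134 and Nr2f6 scored 115 and 119. Nr2f2 (chr7:70351944-70366735), needed for veins and atria, scored 83 and 96 and stood in the bottom 25% of open genes. A peak of 123 and 125 had its near edge 1.08 kb from an internal TSS of Nr2f2, just past the limit, and was counted as distal. The low place of Nr2f2 therefore rests on the window. The strongest Nr2f1 peaks lay 794 and 914 bp upstream of a TSS. Nr2f2 had a peak in both replicates at each of its 4 promoters, and these lay between 76 and 96 throughout.

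Other NR2 genes were Nr2c1 and Nr2c2, the testicular receptors (100 and 109, and 118 and 135), and Nr2e1, which encodes TLX, a factor of neural stem cells (76 and 93). The Nr2e1 peak also lay within 1 kb of a TSS of Ostm1. The next Nr2e1 promoter, 2.86 kb downstream, scored 49 and 77. Nr2e3, a photoreceptor gene, had no TSS peak. A peak of 108 and 122 lay 1070 bp from a TSS of Nr2e3 in both replicates, just past the limit, and a hotspot, a broader region called by the authors, of 484 and 623 bp reached the TSS window. The call of Nr2e3 therefore rests on the window.

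Among the NR3 genes, Esrra and Esrrg, orphan receptors that control mitochondrial genes, scored 128 and 136 and 99 and 107. The mineralocorticoid receptor gene Nr3c2 scored 127 and 136, and the glucocorticoid receptor gene Nr3c1 scored 108 and 124. The progesterone receptor gene Pgr scored 53 and 70. For the estrogen receptors, Esr2 scored 88 and 106, while Esr1 scored 41 and 60. Esr1 and Pgr, the classic sex steroid receptors of the female reproductive tract, were thus below every other NR3 gene in both replicates. The upstream window of Esr2 (chr12:76177260-76177509, minus strand, RefSeq), with peaks of 67 and 106 on it, holds CACGTG in capitals and can be set beside those of Nr1i3 and Nr0b2, which hold it with no peak.
Esr2 promoter: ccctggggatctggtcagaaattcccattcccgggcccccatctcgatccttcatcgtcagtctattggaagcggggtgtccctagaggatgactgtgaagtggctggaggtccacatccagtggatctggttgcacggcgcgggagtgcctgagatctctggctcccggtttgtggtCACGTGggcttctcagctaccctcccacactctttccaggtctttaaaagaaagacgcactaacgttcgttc

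Start sites within NR3 genes differed in strength. The strongest peak of Esrrg lay 389 kb downstream of its first promoter, which scored 52 and 94. Nr3c1 had its strongest peak 28.1 kb downstream, and its first promoter held a peak of 20 in replicate 1 alone. For Nr3c2 the stronger promoter lay 2.85 kb downstream (53 and 68 at the first). Esr1 scored 33 and 33 at its first promoter, and no peak lay at those 311 and 325 kb downstream.

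The NR4 genes, which respond rapidly to signals in many cells, were all open. Nr4a1 scored 89 and 95, Nr4a2 scored 111 and 116, and Nr4a3 scored 110 and 114. Nr4a1 was the lowest of the 3 in each replicate, and Nr4a2 and Nr4a3 differed by no more than 2 points. Of the NR5 genes, Nr5a1, which encodes SF1 of adrenal and gonad, scored 45 and 79, and Nr5a2, which encodes LRH1 of early embryo, liver and pancreas, scored 94 and 104. Nr5a1 had the largest spread between replicates of the 35 open members (62.0 ± 24.0, SD, n = 2), also between different peaks. Neither Nr5a1 nor Nr5a2 had a peak at its first promoter. Nr6a1, the germ cell nuclear factor that shuts off pluripotency genes, scored 123 and 126. Nr0b1, which encodes DAX1, a receptor-like protein without the DNA-binding domain, scored 47 and 66.

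Over the whole set, the members had 114 promoters. Of these, 65 had a peak in both replicates, 8 in 1 replicate and 41 in neither. The share with a peak in both was 57.0%, against 41.7% of the 48607 promoters of all protein-coding genes, and the share with none was 36.0% against 53.1%. There were 33 members with at least 2 promoters, and 21 of them, or 63.6%, had at least 2 with a peak in both, against 29.6% of such genes. Neighbouring promoters can count the same peak where their 1 kb windows overlap, in members and in all genes. At Nr2c2 the first 2 promoters, its only open ones, both counted the peak of 118 and 135. At Nr6a1 the first 2 both counted that of 123 and 126. In a single replicate, neighbouring promoters of Nr2f2 and of Pparg also counted the same peak, as given above. Members also had more annotated TSSs than all genes, with medians of 5.5 and 3, and the shares were not adjusted for this.

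**Figure D2:**
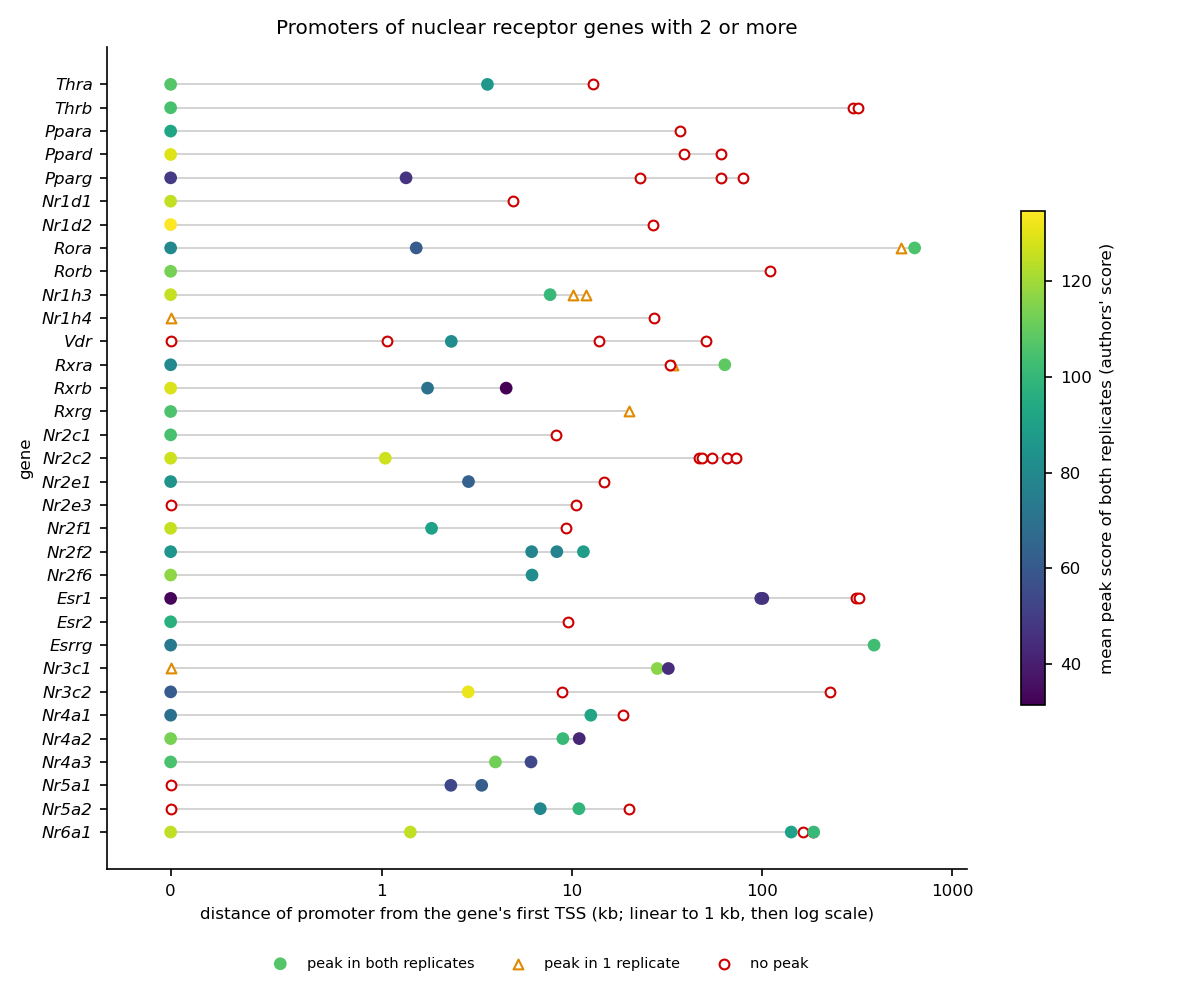
Promoters of the 33 members with 2 or more, by distance from the first TSS of the gene in kb (linear to 1 kb, then logarithmic); colour gives the mean score of both replicates, orange triangles a peak in 1 replicate and red open circles no peak. Rora, Rxra and Esrrg have their brightest point far to the right, and Thrb, Ppard and Nr2c2 have open circles there.

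CpG content of the start sites was compared with openness, as the ratio of observed to expected CpGs in the 500 bp to each side of a TSS, taking the highest over the TSSs of a gene. The 3 members up to 0.3 were Nr0b2, Nr1i2 and Nr1i3, and none was open, where 13% of such genes were. Between 0.3 and 0.6, 5 of 7 members were open, and 71.6% of all genes. The exceptions were Nr1h4 and Nr2e3. Above 0.6, all 30 were, as were 97.6% of genes up to 0.9 and 99.1% beyond. Members thus followed the shares of all genes in each class. Among the 35 open members, strength had a Spearman rho of 0.17 with this ratio, against 0.42 over 15300 open genes. Pparg and Nr5a1, above 0.8, scored as low as Pgr and Nr0b1, below 0.6. These correlations are across genes, which share libraries and base composition.

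**Figure D3:**
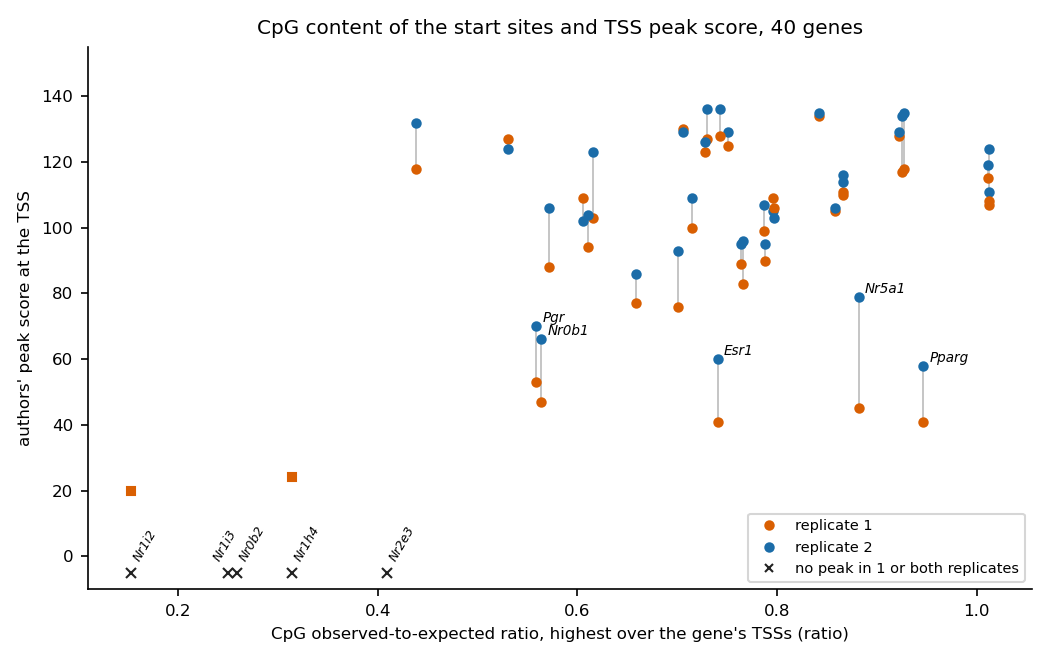
CpG observed to expected ratio (x axis, highest over the TSSs of a gene) and TSS peak score (y axis, authors' score) of the 40 genes; orange is replicate 1, blue is replicate 2 and grey lines join them, crosses below 0 mark a gene without a peak in 1 or both replicates and squares a peak in 1 replicate. The 5 genes not open lie at the left, and Pparg, Nr5a1 and Esr1 are low at a high ratio.

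Distal peaks were then counted, meaning peaks more than 1 kb from any protein-coding TSS and within 50 kb of a TSS of the gene. A shared distal peak is a pair, one from each replicate, that overlap by at least 1 bp. Members had a median of 8 shared distal peaks against 5 over all genes. More than 5 were found at 29 of 40, or 72.5%, against 49.1% of all genes. At least 20 were found at 4 members, Nr2f2 and Rxra with 23 and Nr2f1 and Nr6a1 with 22, which is 10% against 3.58%. The lowest was Nr0b1 with 0, and Nr1h3 and Pgr had 1. Members also had more annotated TSSs than other genes, with medians of 5.5 and 3, which widens the area counted. With the 5'-most TSS of each gene alone, the medians were 5.5 and 4, and 2 members, Nr2f1 and Nr2f2, had at least 20, or 5% against 0.962%. With peaks within 500 bp joined, no member reached 20, and 1.72% of all genes did. The count of 4 members thus rests on how TSSs and neighbouring peaks are counted.

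**Figure D4:**
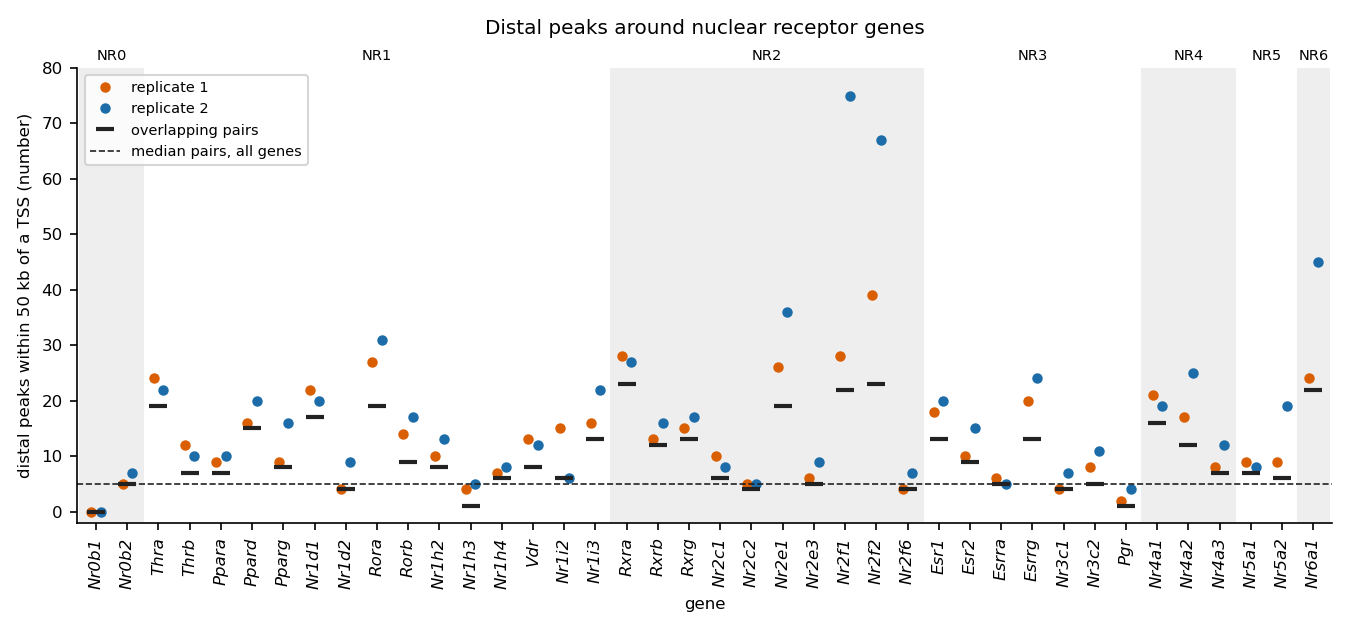
Number of distal peaks within 50 kb of a TSS of each gene, in replicate 1 (orange), in replicate 2 (blue) and as overlapping pairs (black bars), by subfamily; the dashed line is the median number of pairs over all genes, 5. Nr2f1 and Nr2f2 have 75 and 67 peaks in replicate 2 and 28 and 39 in replicate 1.

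The strongest shared distal peaks of the 4 members with the most are shown next, as 150 bases centred on the pair, on the plus strand of mm10. That of Nr2f1 (chr13:78163096-78163245, 121 and 121) lay 27.3 kb downstream of a TSS, in an intron of Fam172a. That of Nr2f2 (chr7:70361696-70361845, 123 and 125) lay in an Nr2f2 intron, 1.18 kb upstream of an internal TSS. That of Rxra (chr2:27765036-27765185, 97 and 108) was intergenic, 24.9 kb downstream of a TSS. That of Nr6a1 (chr2:38823086-38823235, 132 and 137) lay in its intron, within 1 kb of the start of the antisense noncoding gene Nr6a1os. None holds a searched motif, so no base is in capitals.
Nr2f1 distal peak: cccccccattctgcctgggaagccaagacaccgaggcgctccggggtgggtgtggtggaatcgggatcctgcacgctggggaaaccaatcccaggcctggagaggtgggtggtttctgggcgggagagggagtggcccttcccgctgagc
Nr2f2 distal peak: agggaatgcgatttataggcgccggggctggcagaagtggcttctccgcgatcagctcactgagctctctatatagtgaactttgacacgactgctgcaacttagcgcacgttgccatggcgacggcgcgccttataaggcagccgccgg
Rxra distal peak: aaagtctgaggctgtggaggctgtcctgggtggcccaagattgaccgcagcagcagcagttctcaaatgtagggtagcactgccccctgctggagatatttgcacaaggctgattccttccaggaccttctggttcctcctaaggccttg
Nr6a1 distal peak: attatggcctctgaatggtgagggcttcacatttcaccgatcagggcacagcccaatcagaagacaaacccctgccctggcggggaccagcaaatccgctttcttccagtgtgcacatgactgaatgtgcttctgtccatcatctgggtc
The pair at Nr6a1 scored above the TSS peak of the gene in both replicates.

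A distal shared peak scored above the TSS peak in both replicates at 12 of the 35 open members, or 34.3%, against 23.6% of all open genes. These were Nr1d1, Thra, Nr2e1, Nr2f2, Nr4a1, Nr4a3, Nr5a1, Nr6a1, Esr1, Esr2, Pparg and Vdr. Thra and Nr1d1 had the same strongest distal peak, and the strongest at Vdr lay nearest to TSSs of Hdac7 and Tmem106c. Members also had more shared distal peaks than all genes, with medians of 8 and 5, and the share was not adjusted for this. The highest distal peak of the whole set, at Nr4a1 (chr15:101246366-101246515), scored 135 and 140 and lay 7.83 kb upstream of its first TSS, between genes. Its TSS peak scored 89 and 95. Its bases on the plus strand, with no searched motif, are given for that reason.
Nr4a1 distal peak: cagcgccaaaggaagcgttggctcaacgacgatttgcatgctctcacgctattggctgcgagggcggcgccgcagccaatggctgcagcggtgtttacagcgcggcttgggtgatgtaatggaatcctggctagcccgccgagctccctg
Thra and Nr1d1 lie tail to tail on chromosome 11, and all 17 shared distal peaks of Nr1d1 also counted for Thra, which had 19. The 4 of these that lie furthest upstream of Nr1d1 had Msl1, which is neither gene, as the nearest protein-coding gene.

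The number of distal peaks differed between the replicates at several members. Nr2f1 had 28 distal peaks in replicate 1 and 75 in replicate 2, and Nr2f2 had 39 and 67. Nr6a1 had 24 and 45, Nr5a2 had 9 and 19 and Pparg had 9 and 16. These were the 5 members, of 28 with at least 10 peaks in a replicate, with over 1.5 times as many in replicate 2, a share of 17.9% against 18.2% of such genes. The share is near that of all genes. Nr1i2 went the other way, with 15 and 6, the only member of the 28 with over 1.5 times as many in replicate 1, or 3.57% against 4.43%. When peaks within 500 bp of each other were joined, Nr2f2 had 24 and 24, Nr2f1 had 16 and 30, and Nr1i2 had 11 and 5. So the excess at Nr2f2 lay in closely spaced peaks, and at Nr2f1 only part of it did.

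**Figure D5:**
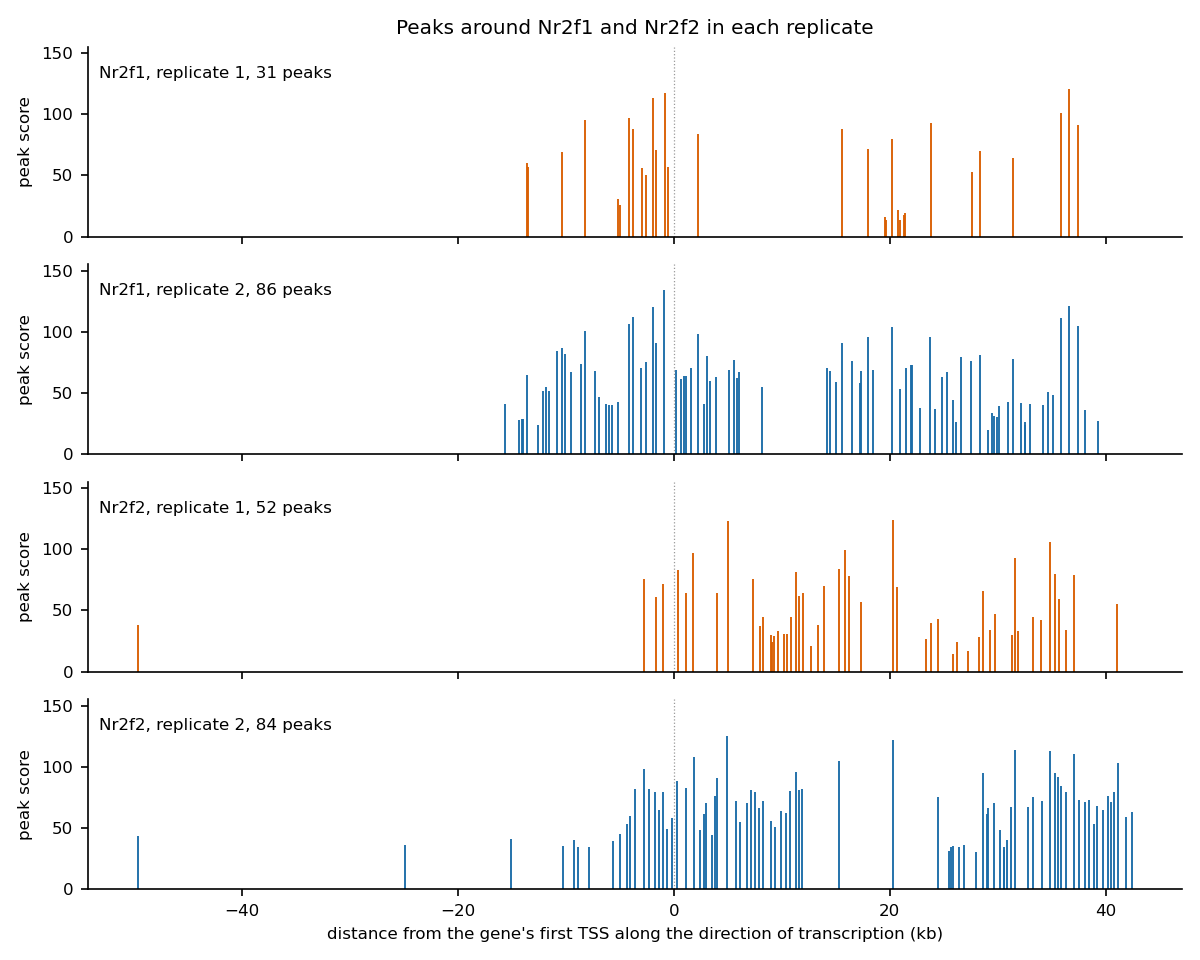
Peaks within 50 kb of the first TSS of Nr2f1 and of Nr2f2 in each replicate, by distance in kb along the direction of transcription (x axis) and authors' score (y axis); each line is a peak. Replicate 1 has 31 and 52 lines and replicate 2 has 86 and 84, and at Nr2f2 most of them lie downstream of the TSS.

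Around the first TSS of Nr2f1, within 50 kb, replicate 1 had 14 peaks upstream and 17 downstream, and replicate 2 had 28 and 58. Around Nr2f2 the numbers were 4 and 48 in replicate 1 and 19 and 65 in replicate 2. Peaks of Nr2f2 were thus mostly downstream in both replicates. All 22 shared distal peaks of Nr2f1 and all 23 of Nr2f2 had that gene as nearest protein-coding gene. Of these, 8 at Nr2f1 and 5 at Nr2f2 lay within 1 kb of the start of a noncoding gene, such as A830082K12Rik next to Nr2f1.

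Hotspots at the TSSs were also wider in replicate 2. There, a hotspot wider than 2 kb touched the TSS window of 20 of 40 members, or 50%, against 18.1% of all genes. In replicate 1 this held for 1, Nr3c1, or 2.50%, against 2.91%. The widest were at Nr2f2 with 1145 and 8131 bp in replicates 1 and 2, Nr4a3 with 1020 and 7787 bp, and Nr5a2 with 386 and 4609 bp. The median width at open members was 843 and 2259 bp, and at all open genes 841 and 1487 bp. Members were therefore close to other open genes in replicate 1 and wider than them in replicate 2, and with 1 replicate on each side no error can be put on this. The width is that of the widest hotspot over all TSSs of a gene. Members had more annotated TSSs, with medians of 5.5 and 3, and were more often open, and neither was adjusted for.

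Without a distance limit, each shared distal peak was given to the gene with the nearest TSS. Then 6 members had at least 30 peaks, or 15%, against 3.26% of all genes. They were Nr2f2 with 123, Nr2f1 with 102, Rora with 66, Esrrg with 51, Nr5a2 with 47 and Nr4a2 with 30. The stretch of genome nearest to Nr2f1 measured 1434 kb and that of Nr2f2 1307 kb, where the median was 98.7 kb for members and 45.1 kb for all genes. Per 100 kb, Nr2f2 had 9.41 and Nr2f1 had 7.11, where the upper quartiles were 8.74 for members and 7.63 for all genes and the medians 5.34 and 3.62. The densest were Nr1d1 with 29.9, Thra with 18.5, Nr4a1 with 15.3, Rxrg with 13.2 and Ppard with 12.7. Across the 40 members the number of peaks and the length of that stretch had a Spearman rho of 0.81. The large counts at Nr2f1 and Nr2f2 thus came with long stretches free of other protein-coding TSSs, while the third COUP-TF gene, Nr2f6, had 1 peak in 11.5 kb.

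Counting each peak once, 384 shared distal peaks lay within 50 kb of members, with 19 counted for a pair of members. They had a median score of 57.75, against 50.5 for all 116966 shared distal peaks. Introns held 52.3% of them and 41.3% of all, exons 6.77% and 6.01%, and intergenic DNA 40.9% and 52.7%. Rora had all 19 of its shared distal peaks in its own introns, and Nr6a1 had 16 of 22 in its own body.

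The core sites that receptors bind were looked for in these 384 peaks, on both strands, in the 150 bases centred on each. AGGTCA was in 46 of them, or 12%, against 16.2% of all shared distal peaks. AAAGGTCA was in 5 (1.3% against 2.40%), TAGGTCA, the core bound by ROR and REV-ERB, in 5 (1.3% against 1.84%), and TCAAGGTCA, bound by NR5 and ERR monomers, in 2 (0.521% against 0.490%). The last 3 contain AGGTCA, so their counts overlap. CACGTG was in 20, or 5.21% against 2.92%, TGACGTCA, the cyclic AMP element, in 3, or 0.781% against 0.327%, and TTATGTAA in 3, or 0.781% against 0.492%. The receptor core site was thus less frequent near members than in all distal peaks, and CACGTG more frequent, as a description with no test. A match is letters only and shows no binding.

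A direct repeat of AGGTCA with 1 base between, the form bound by RXR with several partners, was found once, at Rxra (chr2:27772976-27773125, 79 and 87, intergenic, 32.9 kb downstream of a TSS). That is 0.260% of the 384, against 0.261% of all. The repeat with 5 bases between was found once, within 50 kb of Esrra (chr19:6971796-6971945, 47 and 52), in an intron of Plcb3, against 0.0624% of all. Spacers of 2, 3 and 4 bases and inverted repeats of AGGTCA or AGAACA with 3 bases between were in none. Both peaks are given on the plus strand with the matches in capitals, the Rxra repeat reading on the minus strand and a separate TAGGTCA following it.
Rxra peak with repeat: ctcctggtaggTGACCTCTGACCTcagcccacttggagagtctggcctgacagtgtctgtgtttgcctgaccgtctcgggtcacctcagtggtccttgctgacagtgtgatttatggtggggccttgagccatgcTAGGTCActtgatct
Esrra peak with repeat: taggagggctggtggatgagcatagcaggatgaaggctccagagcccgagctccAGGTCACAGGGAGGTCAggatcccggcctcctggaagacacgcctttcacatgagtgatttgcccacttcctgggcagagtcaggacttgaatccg
In promoters, 37 of the 40 members matched the RefSeq table, with 52 windows of 250 bases upstream of a start. AGGTCA was in 10 of the 52, or 19.2%, against 14.0% of 32851 windows of all genes, and CACGTG in 4, or 7.69% against 6.02%. TGACGTCA was in 1, that of Nr2e1, or 1.92% against 1.55%.

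Genes that work with receptors were counted by the same rule. All 16 coactivators, all 16 corepressors, all 9 chaperones of steroid receptors and all 11 clock partners were open, against 69.7% of all protein-coding genes. The strongest in each list were Prmt1, an arginine methyltransferase (137 and 141), Sin3a, a scaffold of deacetylase complexes (137 and 138), Stub1, a chaperone-bound ubiquitin ligase (138 and 141), and Per1, a clock repressor (138 and 145). Of 13 enzymes that make steroids or bile acids, 5 were open, 2 had a peak in replicate 2 alone and 6 had none. Srd5a1, which makes dihydrotestosterone, scored 130 and 138, and Cyp27a1, a sterol hydroxylase, scored 87 and 113. Cyp11a1, the first enzyme of steroid synthesis, Cyp11b1 and Cyp11b2 had no peak. All listed cofactors were thus open, and 8 of 13 enzymes were not. The CpG content of the listed genes was not compared, so nothing particular to receptor partners can be read from this.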

How the data were processed

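Peak and hotspot files of both replicates were used as deposited. Per the labels and the text deposited with them, the authors called each replicate on its own, on mm10. Which aligner, caller and thresholds they used is not given in the sources used here. The values used from the peak files are the authors' score, a whole number whose definition is not stated. The deposited hotspots carry the authors' −log10 q-value, which was not used to select them. Repeated peaks and peaks off nuclear chromosomes were dropped. Per the labels, replicate 2 was sequenced on 2 instrument models, and none is named for replicate 1.

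TSSs were those of protein-coding genes in GENCODE M21 (GRCm38, the sequence of mm10). Peaks were paired one to one by best overlap. Every member is named, with the 3 strongest and the first 3 closed genes of each other list, and the strongest distal peaks, as the rule took them. Not all of the genes it takes are printed. The sequences of Nr1d1, Nr4a1, Esrra and the repeat at Rxra, the promoter counts, the overlap of the strongest TSS peaks, the limits of 20 and 30 peaks and 2 kb, and the comparison of distal with TSS peaks were chosen after the values were seen. The members and lists were chosen with earlier results of these data known. Promoter sequences are from RefSeq. Nr3c1, Nr5a1 and Thra had no entry used. Python 3.11.15, numpy 2.4.6, scipy 1.17.1 and samtools 1.23.1 were used. On simulated peaks, 100% of 200 gene states and 100% of 500 shared pairs were recovered. Depth is unknown, so no interval was given. With 1 group there was no test between conditions.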

Additional observations from a re-analysis of the deposited data

How the results depend on the processing

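The count of open members stayed between 31 and 37 of 40 under every alternative tried. With the 5'-most TSS alone it was 31, and Nr3c1, Nr5a1, Nr5a2 and Vdr were no longer open. The stronger 50% of peaks left 33, without Esr1 and Pparg. A window of 2500 bp and the use of hotspots each added Nr2e3. Leaving out a replicate gave 35 to 37. The shares of all genes were 65.3% with the 5'-most TSS, 65.5% with the stronger 50% of peaks, 73.3% with 2500 bp and 70.8% to 71.9% with a replicate left out. The median strength of open members was 105.5 with a window of 500 bp, 111 with 2500 bp, 104.5 with the 5'-most TSS, 105.5 with protein-coding transcripts only, and 106 to 109 with a replicate left out. When peaks near the TSS of another gene were dropped, a setting chosen after the data were seen, it was 105.5. The same 35 members were then open.

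The median of shared distal peaks was 4 within 25 kb, 15 within 100 kb, 5.5 with the 5'-most TSS and 4 with the stronger 50% of peaks. It was 11 to 14 in a single replicate. Over all genes the medians were 3 within 25 kb, 11 within 100 kb, 4 with the 5'-most TSS and 7 to 8 in a single replicate. Nr2f1 and Nr2f2 were among the 5 members with most shared distal peaks in all settings but 2. Within 100 kb Rora led with 39. When peaks near starts of noncoding genes were also left out, also chosen after the data were seen, Nr2f1 had 14 and Nr2f2 had 18, and Rxra led with 23. No paired analysis was possible because there is 1 group. The number of reads is unknown, so weak peaks such as those of Nr1h4 and Nr1i2 cannot be weighed against depth.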
